A study of Mus musculus with 23 samples.

Results

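miR-33 is the microRNA (miRNA) that lies inside an intron of Srebf2, the gene of the transcription factor SREBP-2. Its hairpin gives a 5p arm and a 3p arm, and both arms, mmu-miR-33-5p and mmu-miR-33-3p, were followed here as 2 of the 1218 mature miRNAs counted in the table. Liver small RNA was sequenced in 23 male C57bl/6J mice of the third generation (F3), and each mouse gave 1 library. All mice came from lineages whose growing diet held 1% of added oil. The reference group (STD_Cont, n = 8) belonged to the control lineage, bred on high oleic sunflower oil. It was fed for 17 weeks on a low-fat diet in which fat gave 10% of the energy. The HFoleic group (HFD_Cont, n = 8) belonged to the same lineage and was fed for 17 weeks on a diet high in sucrose and in fat, which gave 45% of the energy. The HFepa group (HFD_O3, n = 7) belonged to the omega 3 lineage, bred on fish oil rich in eicosapentaenoic acid (EPA), and was fed that same diet for 17 weeks. Lineage is therefore known only under the high-fat diet, since no low-fat group of the omega 3 lineage was analysed here. The livers were taken from fasted mice, and no transgene or engineered deletion is named for any of the groups.

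SREBP-2 drives the genes of cholesterol synthesis and uptake when the cell is short of sterol. miR-33 is made from the same transcript and lowers Abca1, the pump that loads cholesterol onto HDL, as well as enzymes of fatty acid oxidation, so that one locus both raises the making of cholesterol and slows its export. In the mouse there is a single miR-33 locus, and the 5p arm is the one most studied as a repressor in the liver. These statements are background and were not tested in the data.

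The mature sequences are given first because the seed, bases 2 to 8, sets which messages a miRNA can pair with. They were taken from RefSeq on build GRCm38.p6, with the seed in capitals.
miR-33-5p: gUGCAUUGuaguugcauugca
miR-33-3p: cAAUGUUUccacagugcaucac
miR-33-5p spans 21 bases at chr15:82198127-82198147 and miR-33-3p spans 22 bases at chr15:82198167-82198188, both on the + strand. The hairpin that holds them is printed next, with the 2 arms in capitals.
Mir33 hairpin: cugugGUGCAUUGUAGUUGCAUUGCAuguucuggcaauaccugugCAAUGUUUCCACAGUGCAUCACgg
This hairpin of 69 bases lies at chr15:82198122-82198190, and 19 bases separate the arms. RNAfold gave it a minimum free energy of -32.2 kcal/mol, with 16 base pairs between the arms. The host gene Srebf2 runs from chr15:82147181-82205379 on the same strand. In its transcript Srebf2-201, which has 19 exons, the hairpin lies in intron 16, 335 bases after the exon before it and 1444 bases ahead of the exon that follows. Srebf2 itself was not measured in these libraries.

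The letters of the 5p seed occur again within the same miRNA, at positions 13 to 19, as the capitals in the next line show.
miR-33-5p, seed repeat: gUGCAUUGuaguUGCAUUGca
No other miRNA of the table shared the 7-base seed of either arm, among the 1045 for which RefSeq gave a sequence. The nearest was miR-409-3p, which matches bases 2 to 7 of the 3p arm but not base 8, and is shown with its own seed in capitals.
miR-409-3p: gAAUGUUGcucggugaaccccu
miR-409-3p had a mean of 4.60 CPM (the count scaled to a library of 1000000 counts), but 286 of its 629 counts came from 1 library.

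Some of the messages on which miR-33 is known to act hold the match to the 5p seed, CAATGCA, in their 3′UTR. The match was searched on the sense strand of the 3′UTRs of GENCODE transcripts on build GRCm38. It was present in 8 of 8 target genes that had been listed for being known targets (Abca1, Abcg1, Crot, Cpt1a, Hadhb, Prkaa1, Sirt6 and Irs2), and in 1496 of 21020 genes, or 7.12%. Among genes with a 3′UTR of like length (0.8 to 1.25 times) the share ran from 2.10% for Hadhb to 17.9% for Abcg1. Because the 8 genes were picked as known targets, these shares give their setting and are not a test of enrichment. The match to the 3p seed, AAACATT, was in 2 of the 8 genes and in 18.98% of all genes. The genes below were chosen to show one transporter, 2 enzymes of fatty acid handling and one protein of insulin signaling, with the match in capitals. Positions count from the first base of the 3′UTR.
Abca1, bases 131 to 160: tattCAATGCAATGCActtCAATGCAacga
Crot, match at base 160: ctgtgttgcaaccaCAATGCAAa
Cpt1a, match at base 1645: tcctgagcagttacCAATGCAAt
Irs2, match at base 1468: aatatatttaatggCAATGCAgc
Abca1 carries 3 matches within 30 bases, starting at bases 135, 140 and 150, and the first and the second overlap. In Crot (which moves peroxisomal fatty acids onto carnitine) and Cpt1a (which does so for the mitochondrion) the capitals run on to an A, the 8-base form of the match. Irs2 (an adaptor of the insulin receptor) holds the 7-base form. These matches describe sequence only, as no message was measured in these libraries.

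Both arms were present in every library but at low counts. The 5p arm had between 21 and 75 counts per library and 1167 in all, whereas the 3p arm had between 15 and 48 and 600 in all. Ordered by mean CPM, they ranked 261 and 304 among 386 miRNAs tested, and both arms were kept by the filter of edgeR on low counts. Library totals lay between 3725432 and 8139344 counts and were lowest in HFepa (3725432 to 4947990). Levels are therefore given as CPM scaled with TMM factors. Counting error alone gave a coefficient of variation of 14.6% for miR-33-5p and 18.5% for miR-33-3p in the reference group, where the mice varied by 27.5% and 33.4%. In HFepa the 3p arm varied by 22.7%, close to its counting error of 22.5%.

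The mean level of miR-33-5p was higher in the livers of mice on the high-fat diet. In the reference group its lowest, median and highest levels were 3.53, 7.38 and 10.6 CPM, with a mean of 7.42 ± 2.04 (SD, n = 8). In HFoleic they were 9.69, 10.7 and 14.6 CPM, with a mean of 11.1 ± 1.61 (SD, n = 8). In HFepa they were 7.08, 9.86 and 13.6 CPM, with a mean of 10.1 ± 2.25 (SD, n = 7). All 8 HFoleic mice and 6 of 7 HFepa mice lay above the reference median. The ranges nevertheless overlapped. Reference replicate 6 (10.6 CPM) was the only reference mouse above the lowest HFoleic mouse, and 4 HFoleic and 2 HFepa mice exceeded it. Reference replicate 5, with 21 counts, was the lowest of all 23 mice at 3.53 CPM (95% exact Poisson interval 2.18 to 5.39, which covers counting error only).

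**Figure D1:**
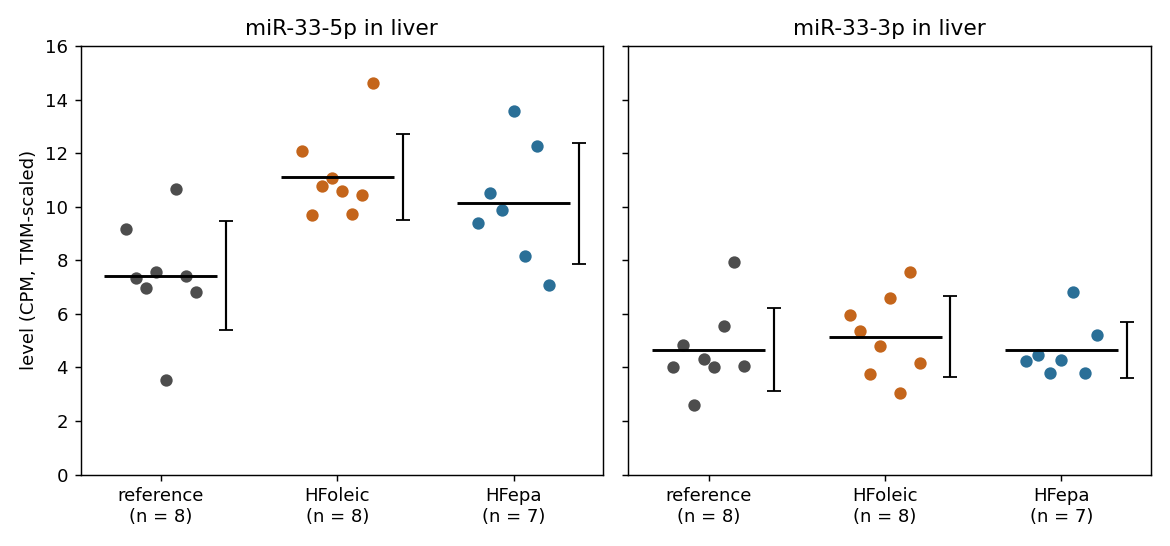
Levels of miR-33-5p (left) and miR-33-3p (right) in CPM scaled with TMM factors, on a shared linear axis from 0, with 1 point for each mouse, a line at each group mean and a bar of ± 1 SD beside it. The 8 HFoleic points of miR-33-5p sit between 9.69 and 14.6 CPM, above 7 of the 8 reference points, whereas the 3 groups of miR-33-3p lie over each other.

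In HFoleic vs. reference, miR-33-5p rose by 0.58 on the log2 scale (SE 0.17, 95% interval 0.24 to 0.92), a fold of 1.50, with an adjusted p of 0.0278 (edgeR quasi-likelihood test, p-values adjusted by Benjamini-Hochberg over the 386 miRNAs). The word called is used where the adjusted p was under 0.05 and the log2 fold change was over 0.25 in size. In this comparison 12.4% of the tested miRNAs were called, and 4.92% were called higher, so that miR-33-5p was 1 of 19 higher ones. It ranked 27 by p. The difference in its log2 CPM also passed a two-sided exact permutation test of the mice (0.60, p = 0.000932, 8 against 8). The call rested on a narrow margin, since it was lost without reference replicate 5 (log2 fold change 0.46, adjusted p = 0.0631), without HFoleic replicate 8 (0.52, adjusted p = 0.0560) or without HFoleic replicate 6 (0.60, adjusted p = 0.0522), while the direction held whichever of the 23 libraries was left out. Of 14 other settings it was lost in 8 and held in 6, and the estimate stayed between 0.39 and 0.69. The 6 include that permutation test, which was judged at an unadjusted p under 0.05.

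**Figure D2:**
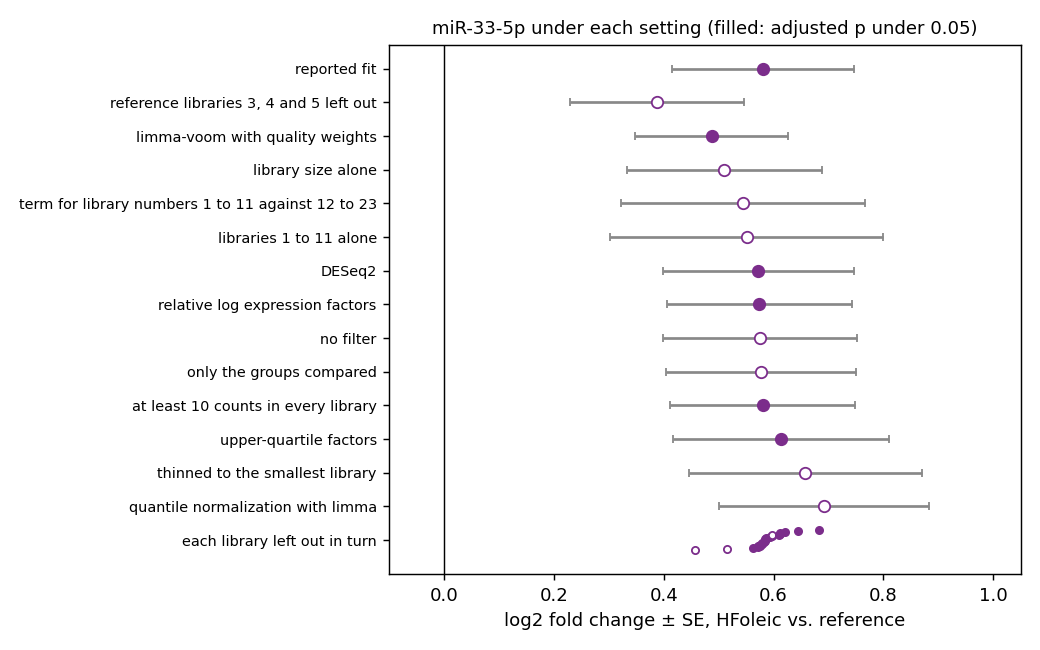
Log2 fold change of miR-33-5p in HFoleic vs. reference under each setting fitted across all miRNAs, with bars of ± 1 SE (none for the bottom row of single libraries left out); filled points have an adjusted p under 0.05. Every estimate lies above 0, from 0.39 with reference libraries 3, 4 and 5 left out to 0.69 with quantile normalization, and the open points mark the 8 settings and 3 single libraries left out with which the call was lost.

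In HFepa vs. reference, the estimate for miR-33-5p was 0.45 on the log2 scale (SE 0.17, 95% interval 0.09 to 0.80), a fold of 1.36. It did not pass the call (adjusted p = 0.0758 by edgeR's quasi-likelihood test), in a comparison where 15.8% of miRNAs were called and 5.18% were called higher. Its unadjusted p was 0.0169, and 28.5% of all miRNAs had an unadjusted p under 0.05. Without reference replicate 6, the highest reference mouse, it passed the call (0.57, adjusted p = 0.0277), whereas without reference replicates 3, 4 and 5 together the estimate was 0.26 (adjusted p = 0.334). A two-sided exact permutation test of log2 CPM gave p = 0.0274 (7 against 8). Both comparisons use the same 8 reference mice and are not independent of each other.

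The 2 lineages were not told apart by miR-33-5p under the high-fat diet. HFepa minus HFoleic was -0.13 on the log2 scale (95% interval -0.49 to 0.22, adjusted p = 0.968 by edgeR's quasi-likelihood test), and the interval of the fold ran from 0.711 to 1.17. No miRNA was called in this comparison (0.0%) by edgeR, DESeq2 or quantile normalization with limma, and 1 was by limma-voom with quality weights. At an unadjusted p under 0.05 there were 22 miRNAs by edgeR (5.7%). Of the 7 HFepa mice, 2 were above the HFoleic median and 3 below the lowest HFoleic mouse.

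With both high-fat groups weighed equally against the reference, miR-33-5p rose by 0.51 (SE 0.15, 95% interval 0.21 to 0.82), a fold of 1.43, with an adjusted p of 0.0169 by edgeR's quasi-likelihood test. In this comparison 19.2% of miRNAs were called, 5.96% were called higher, and 32.1% had an unadjusted p under 0.05. The 15 high-fat mice had a mean of 10.7 ± 1.93 CPM (SD), and 14 of them lay above the reference median. This call held whichever of the 23 libraries was left out, the highest adjusted p being 0.0481. It was lost when reference replicates 3, 4 and 5, which hold the highest sums of biliary, muscle and pancreas miRNAs, were left out together (0.33, adjusted p = 0.172), as was that of HFoleic vs. reference (0.39, adjusted p = 0.182).

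The 3p arm did not pass the call in any comparison. In the reference group miR-33-3p had a lowest, median and highest level of 2.61, 4.18 and 7.92 CPM, with a mean of 4.66 ± 1.56 (SD, n = 8). In HFoleic these were 3.04, 5.08 and 7.58 CPM, with a mean of 5.15 ± 1.52 (SD, n = 8), and in HFepa 3.79, 4.28 and 6.80 CPM, with a mean of 4.66 ± 1.06 (SD, n = 7). Every high-fat mouse lay within the range of the reference mice. Its log2 change was 0.14 in HFoleic vs. reference (95% interval -0.28 to 0.56, adjusted p = 0.672 by edgeR's quasi-likelihood test) and 0.00 in HFepa vs. reference (-0.43 to 0.43, adjusted p = 0.999). It was -0.14 in HFepa vs. HFoleic (-0.58 to 0.30, adjusted p = 0.968). With both high-fat groups it was 0.07 (-0.30 to 0.44, adjusted p = 0.823), an interval that still holds folds from 0.813 to 1.36. Without reference replicates 3, 4 and 5 these estimates against the reference turned to -0.078, -0.21 and -0.14, none of them called.

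**Figure D3:**
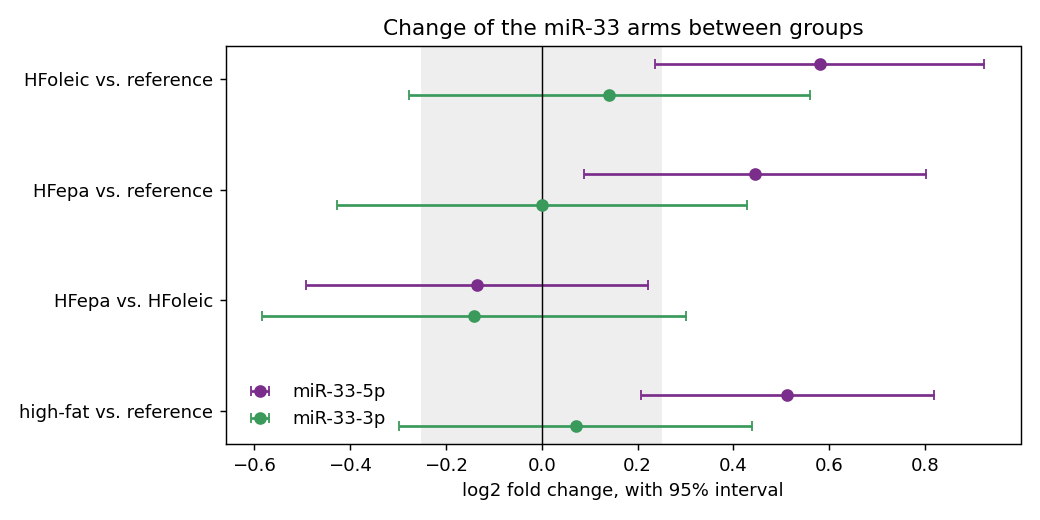
Log2 fold changes of miR-33-5p and miR-33-3p in the 4 comparisons from the edgeR fit, with 95% intervals; the grey band marks an absolute change of up to 0.25. The 5p intervals against the reference lie above 0 (0.24 to 0.92 in HFoleic, 0.09 to 0.80 in HFepa), whereas each 3p interval spans 0.

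The change of one arm against the other was tested within each library, where scaling between libraries plays no part. The log2 ratio of the 5p to the 3p count, with 0.5 added to each, had a lowest, median and highest value of -0.19, 0.77 and 1.39 in the reference, 0.45, 1.10 and 1.79 in HFoleic, and 0.26, 1.21 and 1.66 in HFepa. Its means were 0.67 ± 0.56 (SD, n = 8), 1.14 ± 0.48 (n = 8) and 1.10 ± 0.55 (n = 7). The 5p arm was the larger in 21 of 23 libraries, the exceptions being reference replicates 5 and 7, where it had 3 counts fewer than the 3p arm. In summed counts, the reference had 1.61 5p reads for each 3p read, HFoleic 2.16 and HFepa 2.17.

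That difference in ratio did not pass the test, so a change of 5p that differs from the change of 3p was not shown. HFoleic minus reference was 0.47 (SE 0.26, 95% interval -0.09 to 1.03, two-sided exact permutation p = 0.0926, adjusted over 4 comparisons 0.185). HFepa minus reference was 0.43 (95% interval -0.20 to 1.06, exact permutation p = 0.159, adjusted 0.212). HFepa minus HFoleic was -0.04 (-0.63 to 0.53, exact permutation p = 0.868). For both high-fat groups against the reference it was 0.45 (-0.02 to 0.92, permutation p = 0.0636, adjusted 0.185). Leaving out single libraries moved the unadjusted p of that last comparison between 0.0293 and 0.157, and it was under 0.05 without reference replicate 1 or 3, HFoleic replicate 7 or HFepa replicate 5 or 7. In HFoleic vs. reference it was under 0.05 without reference replicate 3 (p = 0.0460) or HFoleic replicate 7 (p = 0.0441) by the exact permutation test.

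The 2 arms of miR-33 were close in level. Of 100 hairpins with both arms tested, 17 were more even than miR-33, whose absolute log2 ratio of summed counts was 0.96 against a median of 3.90. No relation between the levels of the arms was detected over the mice. Pearson's r of their log2 CPM was 0.08 (permutation p = 0.709) and Spearman's rho 0.04 (permutation p = 0.847), n = 23. With each group centred on its mean r was -0.015, and without the 2 libraries farthest from the median of miR-33-5p it was 0.05.

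**Figure D4:**
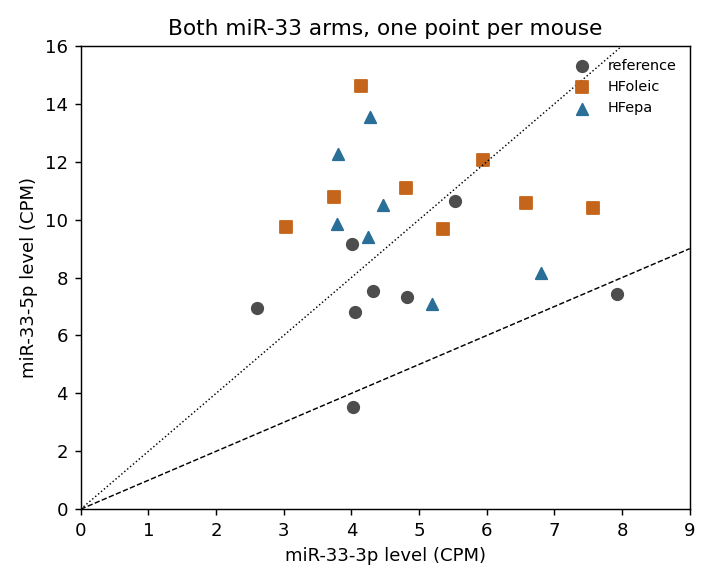
miR-33-5p against miR-33-3p, both in CPM, with 1 point for each of the 23 mice, shaped and coloured by group; the dashed line marks equal levels and the dotted line 5p at 2 times 3p. The points show little slope (r = 0.08), 21 of 23 lie above the dashed line, and reference replicates 5 and 7 lie just below it.

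The libraries also differed in other ways, which are given beside these results. All reference libraries have label numbers of 1 to 11 and all HFepa libraries numbers of 12 to 23, while HFoleic has 3 of the former and 5 of the latter. The labels do not say what the numbers stand for. HFoleic had a mean miR-33-5p level of 10.8 CPM among libraries 1 to 11 and of 11.3 CPM among libraries 12 to 23, both above the reference mean of 7.42. Within libraries 1 to 11 alone, HFoleic vs. reference gave a log2 fold change of 0.55 (unadjusted p = 0.0486, adjusted p = 0.662 by edgeR's quasi-likelihood test, 3 against 8). With a term for the number class it was 0.54 (adjusted p = 0.415). The class and the group cannot be told apart in HFepa vs. reference without the HFoleic libraries, and that term gave 0.39 (adjusted p = 0.837). In high-fat vs. reference the term gave 0.47 (adjusted p = 0.585).

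miR-122, the defining miRNA of hepatocytes, was high in each library, its 2 arms summing to 11487 to 24029 CPM in the reference, 15790 to 22377 in HFoleic and 14503 to 23980 in HFepa. Some reference libraries held more of some miRNAs listed as markers of other tissues. The 4 pancreas markers summed to 13.0 to 2021 CPM in the reference, 9.47 to 34.1 in HFoleic and 10.7 to 18.4 in HFepa, with the 2021 CPM in reference replicate 5, the mouse with the least miR-33-5p. In that library miR-375-3p alone stood at 2020 CPM, and only 1 of the 4 markers passed the filter. The 4 muscle markers reached 216.7 CPM in reference replicate 4 and at most 12.2 CPM in any high-fat mouse. The 5 biliary markers reached 1094 CPM in reference replicate 3 against at most 333 CPM in a high-fat mouse. Reference replicate 3 also had the highest sums of the 6 leukocyte markers (1760 to 3556 CPM in the reference, 1533 to 2439 in HFoleic, 1543 to 2445 in HFepa) and of the 6 stellate and fibroblast markers (23450 to 42525, 19868 to 28555 and 23478 to 30360 CPM). The leukocyte marker miR-150-5p, the only one called of its 6, was 321 ± 102 CPM in the reference, 167 ± 75.4 in HFoleic and 122 ± 23.6 in HFepa. It fell by 0.94 in HFoleic vs. reference (adjusted p = 0.0174 by edgeR's quasi-likelihood test) and fell by 1.397 in HFepa vs. reference (adjusted p = 0.0012). Of all tested miRNAs, 12.4% and 15.8% were called in these comparisons, and 7.51% and 10.6% were called lower. No stellate and fibroblast marker was called, with medians of -0.29 and -0.36. Of the 5 biliary markers, 0 were called in HFoleic vs. reference and 1 was called lower in HFepa vs. reference. Only 1 muscle and 1 pancreas marker were tested, and each was called lower in both comparisons. The 2 endothelial markers summed to 13884 to 20326 CPM in the reference, 18211 to 26002 in HFoleic and 19642 to 23667 in HFepa, and miR-126a-5p was called higher in HFepa vs. reference (0.25, adjusted p = 0.0416). None of these markers was at 0 in every library sequenced, and zeros within a single group were not counted. Their part in the miR-33-5p result was not tested beyond the values without replicates 3, 4 and 5 given above. In bulk liver, fewer cells of a type and less RNA per cell cannot be told apart.

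Other miRNAs of cholesterol and lipid handling were read from lists of known roles. The cluster of miR-182, miR-96 and miR-183, which SREBP-2 is known to activate, had no called member of 3 in any comparison. miR-96-5p had 6.16 ± 2.79 CPM in the reference, 10.2 ± 7.86 in HFoleic and 11.2 ± 7.03 in HFepa, with log2 fold changes of 0.70 (SE 0.46, adjusted p = 0.324 by edgeR's quasi-likelihood test) and 0.85 (SE 0.47, adjusted p = 0.249). miR-182-5p had log2 fold changes of -0.41 (adjusted p = 0.332) and -0.20 (adjusted p = 0.718) in the same comparisons. The estimates of these 2 members were of opposite sign. The list's median was 0.07 in HFoleic vs. reference and 0.24 in HFepa vs. reference, against -0.0024 and -0.057 over all tested miRNAs.

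Among 12 tested miRNAs, other than miR-33, that are known to target Abca1, 0 were called higher, and 1 was called lower in HFoleic vs. reference and 2 in HFepa vs. reference, where 7.51% and 10.6% of all tested miRNAs were called lower. miR-128-3p, which also targets the LDL receptor, was 45.1 ± 3.87 CPM in the reference (40.9 to 52.3), 32.2 ± 8.39 in HFoleic (20.9 to 43.6) and 29.1 ± 6.60 in HFepa (20.8 to 42.0). It fell by 0.49 in HFoleic vs. reference (SE 0.14, adjusted p = 0.0311 by edgeR's quasi-likelihood test) and fell by 0.63 in HFepa vs. reference (SE 0.15, adjusted p = 0.0087). Only 1 HFoleic and 1 HFepa mouse reached the lowest reference mouse, so that the ranges overlapped at one end only. The call in HFoleic vs. reference was lost in 8 of 23 fits that left out 1 library, those without reference replicates 1, 4 or 5 or HFoleic replicates 4 to 8 (adjusted p 0.0541 to 0.0682), and in 8 of 13 other settings (adjusted p of up to 0.818). With the term for library numbers its estimate in HFepa vs. reference was 0.0081. The other called member, miR-10b-5p, stood at 20240 CPM in reference replicate 5 and at no more than 1980 CPM in any other reference mouse. Its log2 fold change in HFepa vs. reference was -2.36 with that library and -0.36 without it (adjusted p = 0.704), and the call was lost in 17 of 23 such fits. The median of this list was -0.13 in HFoleic vs. reference and -0.14 in HFepa vs. reference. Its estimates were positive for 5 of the 12 in the former comparison and for 4 in the latter. miR-27b-3p rose by 0.18 (adjusted p = 0.0288 by edgeR's quasi-likelihood test) and by 0.17 (adjusted p = 0.0414) in these comparisons. miR-26a-5p rose by 0.22 in HFepa vs. reference (adjusted p = 0.0340). Neither was called, as these changes were too small in size for a call. miR-758-3p and miR-302a-3p were not analysed here, and miR-301b-3p was below the filter.

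Of 8 miRNAs tied to cholesterol uptake or lipid output, miR-128-3p was again the only one called in HFoleic vs. reference and in HFepa vs. reference, where 12.4% and 15.8% of all tested miRNAs were called, and the median change was -0.05 in both. In HFepa vs. HFoleic no member of any list was called. The lowest p-values there belonged to miR-103-3p (-0.13, adjusted p = 0.771 by edgeR's quasi-likelihood test) and miR-26a-5p (0.14, adjusted p = 0.865), followed by miR-378a-3p (-0.18, adjusted p = 0.901) and miR-145a-5p (-0.20, adjusted p = 0.901). miR-148a-3p (-0.13), miR-128-3p (-0.15), miR-182-5p (0.21) and miR-183-5p (0.16) were the lowest of their lists, with adjusted p-values of 0.937 to 0.968.

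Like miR-33, some other miRNAs lie in introns of metabolic genes. In the annotation of build GRCm38, miR-107 lies within Pank1, miR-103 within Pank3 and Pank2 (pantothenate kinases, the first step towards coenzyme A), and miR-335 within Mest. The list also holds both arms of miR-378a, whose host was not looked up here. Of the 6 arms in this list, 2 were called higher in HFoleic vs. reference, 1 in HFepa vs. reference, against 4.92% and 5.18% of all tested miRNAs, and 0 were called lower, against 7.51% and 10.6%. The medians were 0.19 and 0.14. miR-335-3p was 31.9 ± 7.92 CPM in the reference (23.3 to 47.2), 45.6 ± 8.20 in HFoleic (36.4 to 58.4) and 49.2 ± 7.60 in HFepa (40.7 to 58.1). It rose by 0.51 in HFoleic vs. reference (SE 0.14, adjusted p = 0.0233 by edgeR's quasi-likelihood test) and by 0.62 in HFepa vs. reference (SE 0.14, adjusted p = 0.0073). The former call was lost without HFoleic replicate 5 or 7 (adjusted p 0.0511 to 0.0538) and in 4 of 13 other settings, and the latter in 1 of 12 (the term for library numbers, adjusted p = 0.723). The other arm, miR-335-5p, was called in neither comparison. For miR-335 the log2 ratio of 5p to 3p counts changed by -0.37 in HFoleic and by -0.40 in HFepa against the reference, which was not tested. miR-107-3p was 979 ± 205 CPM in the reference and 1282 ± 127 in HFoleic, and rose by 0.39 (SE 0.12, adjusted p = 0.0357). That call was lost without reference replicate 4 or 5, HFoleic replicate 5, 6 or 7, or HFepa replicate 3 (adjusted p 0.0502 to 0.0912), and in 10 of 13 other settings, with an estimate as low as 0.21. In HFepa it was 1147 ± 174 CPM, and no call was made. The host messages were not measured in these libraries.

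The miRNAs whose levels were most like those of each arm were found by Pearson's r of log2 CPM over the 23 mice, each group centred on its mean, among 259 miRNAs of at least 10 CPM. For miR-33-5p these were miR-21a-3p (r = 0.56), miR-144-3p (r = 0.51) and miR-29b-3p (r = 0.49), against a median r of -0.06 over the 259. For miR-33-3p they were miR-744-5p (r = 0.71), miR-139-5p (r = 0.68) and miR-30c-5p (r = 0.65), against a median of -0.03. The 2 sets held no miRNA in common. Without the 2 libraries farthest from their group mean in the arm, r was 0.41, 0.67 and 0.37 in the former set and 0.63, 0.66 and 0.52 in the latter, in the same order. All of these points share libraries and depth, and the values are descriptions of the libraries.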

How the data were processed

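The authors removed adapters with the FASTX-Toolkit, aligned reads with Bowtie in ncPRO-seq, annotated them to miRBase and deposited raw counts per mature miRNA. The submitters' processing notes name bcl2fastq 2.17.1.14 and mm10, whereas the methods write both GRCm38.p6 and mm9. The deposited values carry no coordinates, so locations come from the GRCm38 annotation. The 23 columns of counts divided by size factors, the authors' group means and their columns of fold changes and p-values were not used.

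All 23 libraries were fitted together in edgeR 4.0.16 (R 4.3.3): filterByExpr by group left 386 miRNAs with 99.98% of counts, TMM factors were computed, and each comparison was tested by the quasi-likelihood test with Benjamini-Hochberg adjustment. Each mouse is 1 replicate. Log2 CPM used a prior count of 2. Permutation tests enumerated all splits, or drew 100000 where a group held 10 or more mice, and intervals of a ratio difference hold the shifts those tests did not reject. DESeq2 1.42.0, limma 3.58.1, RNAfold 2.7.2 and SciPy 1.17.1 were used.

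The members and lists were chosen with earlier results of these data known. Named were both arms, the 3 miRNAs most like each arm, miRNAs sharing a seed, and, from each list, the called miRNAs or, where none was called, the 2 of lowest p. miR-409-3p, which shares only bases 2 to 7, was added to them after its values were seen. The changes of miR-27b-3p and miR-26a-5p against the reference were also added after being seen, and were not followed through the other settings.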

Additional observations from a re-analysis of the deposited data

How the results depend on the processing

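No paired analysis was possible because each library number belongs to 1 mouse and no number is shared between groups. For miR-33-5p in HFoleic vs. reference, the log2 fold change with each library left out lay between 0.46 and 0.68. The call was lost with quantile normalization (0.69, adjusted p = 0.0507), library size alone (0.51, 0.0632), no filter (0.57, 0.0782), only the groups compared (0.58, 0.0539), libraries thinned to the smallest (0.66, 0.0507), the library number term (0.54), libraries 1 to 11 alone (0.55) and without reference replicates 3, 4 and 5 (0.39), a setting chosen after the data were seen. It held by DESeq2, limma-voom, upper-quartile and relative log expression factors, and with a minimum of 10 counts in each library. It was also counted as held in the permutation test, whose p was not adjusted over the miRNAs. In high-fat vs. reference it was lost with the number term (0.47, adjusted p = 0.585) and without those 3 libraries (0.33), and single libraries gave 0.40 to 0.62. In HFepa vs. reference single libraries gave 0.34 to 0.57, and without reference replicates 3, 4 and 5 the estimate was 0.26. The permutation test there (0.45, p = 0.0274) was not adjusted over the miRNAs, so it is a looser rule than the call.

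miR-33-3p was called nowhere. Its sign in HFepa vs. reference turned with limma-voom (-0.17), library size alone (-0.041), no filter (-0.012), a minimum of 10 counts in each library (-0.017), the number term (-0.059), thinning (-0.0067) and without replicates 3, 4 and 5 (-0.21), and lay between -0.12 and 0.18 with single libraries left out. In HFoleic vs. reference it turned without those replicates (-0.078), and in high-fat vs. reference with limma-voom (-0.075) and without them (-0.14), with -0.018 to 0.24 for single libraries. The ratio of the arms ranged over 0.35 to 0.58 in HFoleic vs. reference, 0.33 to 0.55 in high-fat vs. reference and -0.14 to 0.10 in HFepa vs. HFoleic with single libraries left out. The correlation of the arms turned to -0.015 when centred by group.

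Other named miRNAs that turned were miR-96-5p with the number term (-1.18, -1.57 and -1.37 in HFoleic, HFepa and both against the reference) and in libraries 1 to 11 alone (-1.17), miR-128-3p in HFepa vs. reference with the term (0.0081), and miR-10b-5p without replicates 3, 4 and 5 (0.37 in both comparisons). In HFepa vs. HFoleic the term and libraries 12 to 23 alone turned miR-128-3p (0.13 and 0.13), miR-148a-3p (0.023 and 0.029), miR-182-5p (-0.053 and -0.050) and miR-183-5p (-0.22 and -0.22).

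The number of miRNAs called in HFoleic vs. reference was 48 (39.6% higher), and became 28 by DESeq2, 10 with quantile normalization, 31 by limma-voom, 29 with no filter, 7 with only the groups compared, 1 with the number term, 0 in libraries 1 to 11 alone (28 at an unadjusted p under 0.05), 2 without replicates 3, 4 and 5, and 12 to 53 with single libraries left out (12 without reference replicate 5, and 20 to 24 without HFoleic replicates 5, 6 or 7). In HFepa vs. reference it was 61 (32.8% higher), and became 25 with quantile normalization, 40 with only the groups compared, 0 with the number term (16 at an unadjusted p under 0.05), 32 without those replicates and 32 to 66 with single libraries left out (32 to 38 without reference replicate 5 or HFepa replicates 1, 3 or 7). In high-fat vs. reference it was 74 (31.1% higher), and became 25, 48 and 0 with quantile normalization, limma-voom and the term (32 at an unadjusted p under 0.05), 32 without those replicates and 43 to 76 with single libraries left out (43 without reference replicate 5). In HFepa vs. HFoleic it was 1 by limma-voom and 0 to 1 with single libraries left out (1 without HFepa replicate 4). Library size alone moved the share called higher to 21.3%, 24.1% and 21.95% and quantile normalization to 80.0%, 72.0% and 72.0%. The cause of these changes was not tested. Each arm had 15 to 75 counts per library, and the 95% interval of the fold in HFoleic vs. reference ran from 1.18 to 1.90 for 5p and from 0.825 to 1.47 for 3p.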
